A study of Mus musculus with 24 samples.

Results

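Control embryos that were wild type for *Sox9* but carried different Cre drivers were compared at E13.5: 4 libraries of the Sox9+/+;Sox1Cre genotype (A5 to A8) against 4 of the Sox9+/+;NestinCre genotype (A21 to A24). These 8 libraries were chosen from the 24 of the series by genotype and age alone. Both groups were E13.5 archicortex, dissected from embryos of a mixed C57BL/6J;MF1 background, and both carried an active Cre, so that neither is free of the recombinase. In the Sox1Cre line Cre was targeted to the *Sox1* locus and acts across the early neural plate. The paper gives controls and mutants of this line as Sox1Cre/+, that is, heterozygous for the Cre allele. The NestinCre line carries Cre as a transgene that acts later, in neural progenitors. Most of the cortical hem escapes its recombination at E13.5, whereas the dentate neuroepithelium does not. The rest of the series holds the matching Sox9fl/fl;Sox1Cre (A1 to A4) and Sox9fl/fl;NestinCre (A17 to A20) mutants at E13.5, and Sox9fl/fl;Sox1Cre mutants (A9 to A12) and Sox9+/+;Sox1Cre controls (A13 to A16) at E12.5. Litters are not given in the labels and the libraries were numbered consecutively within groups. Cre allele, breeding background, litter and dissection therefore cannot be told apart in this comparison.

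The archicortex is the medial edge of the dorsal telencephalon, where the hippocampus forms. Its dentate neuroepithelium holds SOX9-positive radial glia that later give rise to granule neurons and adult stem cells, and the adjoining cortical hem is a signalling centre that secretes WNT and BMP ligands and produces Cajal-Retzius cells. SOX1, SOX2 and SOX3 are the SoxB1 transcription factors of neural progenitors, and NESTIN is an intermediate filament protein of the same cells.

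The labelled tissue was checked first. *Emx1*, *Emx2* and *Lhx2*, which pattern the dorsal telencephalon, had mean normalized counts of 2199, 5218 and 17454 in Sox1Cre controls and 2294, 4628 and 18651 in NestinCre controls. *Wnt8b* and *Lef1*, markers of the medial wall, had 5209 and 2538 against 4696 and 2375. In contrast, *Gsx1* was at 0 in all 8 libraries, and *Nkx2-1* had a mean of 0.922 in Sox1Cre controls and 0 in NestinCre controls. Only 4 of 16 ventral telencephalic genes were abundant enough to test.

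Reads on genes numbered 20986159, 49445219, 21708294 and 18358691 in Sox1Cre controls A5 to A8, and 24223258, 26258423, 25368980 and 21484388 in NestinCre controls A21 to A24. Values below are normalized counts, which are gene counts divided by a size factor for each library. The comparison was made on log2(normalized count + 1) with limma over the 15475 genes that reached a value of 10 in 4 or more of these 8 libraries, so that the change of low genes is understated. Differences are given as Sox1Cre minus NestinCre, with two-sided p-values and Benjamini-Hochberg adjustment. Single genes were also compared by an exact permutation test, in which 4 against 4 libraries cannot go below p = 0.0286. Nothing in the labels says that the embryos of a group came from separate litters, and p-values measure the spread between these libraries.

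The control transcriptomes differed at few genes. Of the 15475 genes, 32 had an adjusted p under 0.05 by limma, a share of 0.207%. Among them 15 were higher in Sox1Cre controls (0.0969% of the genes tested) and 17 were lower (0.11%). Their log2 differences spanned 0.26 to 7.45 in size, and 15 of the 32 differed by at least 1. The groups did not overlap at any of the 32, and they did not overlap at 985 of all the genes tested (6.37%). The median log2 difference over all genes was 0.00, with 51.1% of genes higher in Sox1Cre controls. At an unadjusted p under 0.05 there were 1486 genes (9.60%). DESeq2 on the recovered reads called 206 genes where limma called 32 and edgeR 30, and without library A22 limma called 20.

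The SoxB1 gene that carries Cre in the Sox1Cre line was among the 32. *Sox1* (ENSMUSG00000096014, GRCm38 chromosome 8, 12395295 to 12400126, plus strand) had 1127, 1339, 1133 and 939 normalized counts in Sox1Cre controls and 2101, 1981, 2566 and 1859 in NestinCre controls. Every Sox1Cre control lay below every NestinCre control. The log2 difference was -0.91 (SE 0.12, limma adjusted p = 0.0294), with group means of 1135 ± 163 and 2127 ± 309 (SD, n = 4), and the exact permutation test gave its smallest p, 0.0286. The same contrast in the *Sox9* mutants, which shares no library with the controls, gave -1.05 (SE 0.14, limma adjusted p = 0.023). *Sox1* also lost its call in controls without A5, A7, A8, A21 or A22, with adjusted p-values up to 0.106 in limma, and at 0.0526 when all 24 libraries were fitted together. At E12.5 the Sox1Cre controls had 1249, 1092, 736 and 556 normalized counts, but no NestinCre library of that age was analysed here.

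No other tested gene of the SoxB and SoxE list passed the threshold. *Sox2* had 4510 ± 277 normalized counts in Sox1Cre controls and 4255 ± 346 in NestinCre controls (SD, n = 4), a log2 difference of 0.09 (SE 0.07, limma adjusted p = 0.741). *Sox3* differed by 0.03 (SE 0.10, limma adjusted p = 0.953). *Sox21*, another SoxB gene, had 574 ± 328 against 670 ± 93.4 normalized counts (SD, n = 4), a difference of -0.37 in controls (limma adjusted p = 0.762) and -0.40 in mutants, and *Sox8* differed by 0.07 in controls (limma adjusted p = 0.984). *Sox9*, the gene deleted in the mutants of the series, had 5218, 5912, 5450 and 5731 normalized counts in Sox1Cre controls and 5636, 4979, 4586 and 5406 in NestinCre controls. These ranges overlapped, and the log2 difference of 0.12 (SE 0.07) did not pass the threshold in limma (adjusted p = 0.646). All 8 controls lay above the 8 mutants of the same age, in which *Sox9* reached 3677 normalized counts at most. *Sox10*, a marker of neural crest and oligodendrocyte lineages, was at 0 in all 8 control libraries. *Nes*, whose regulatory sequences drive the NestinCre transgene, differed by -0.06 (SE 0.07, limma adjusted p = 0.836).

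Genes near the targeted locus were counted next. Within 10 Mb of *Sox1*, 96 genes were tested and 2 passed the threshold, the targeted *Sox1* itself and *Nek3*, both lower in Sox1Cre controls, where 0.207% of all genes passed. At an unadjusted p under 0.05 there were 14 of these 96 genes (14.6%, beside 9.60% over all genes). *Nek3* (chromosome 8, 22128283 to 22166435, minus strand), a kinase of the NIMA-related family, had 94.0, 76.7, 99.1 and 79.4 normalized counts in Sox1Cre controls and 183, 200, 238 and 253 in NestinCre controls. The groups were clearly apart, with a log2 difference of -1.31 (SE 0.14, limma adjusted p = 0.00693). In mutants *Nek3* again had non-overlapping groups, with a log2 difference of -1.18 (SE 0.21) that did not pass the threshold (limma adjusted p = 0.0851). The median of the 96 genes was 0.01, near that of all genes. Within 10 Mb of *Nes*, 244 genes were tested, none passed the threshold and 14 (5.74%) had an unadjusted p under 0.05. The insertion site of the NestinCre transgene is not given in the sources used here, so that its own surroundings were not examined.

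**Figure D1:**
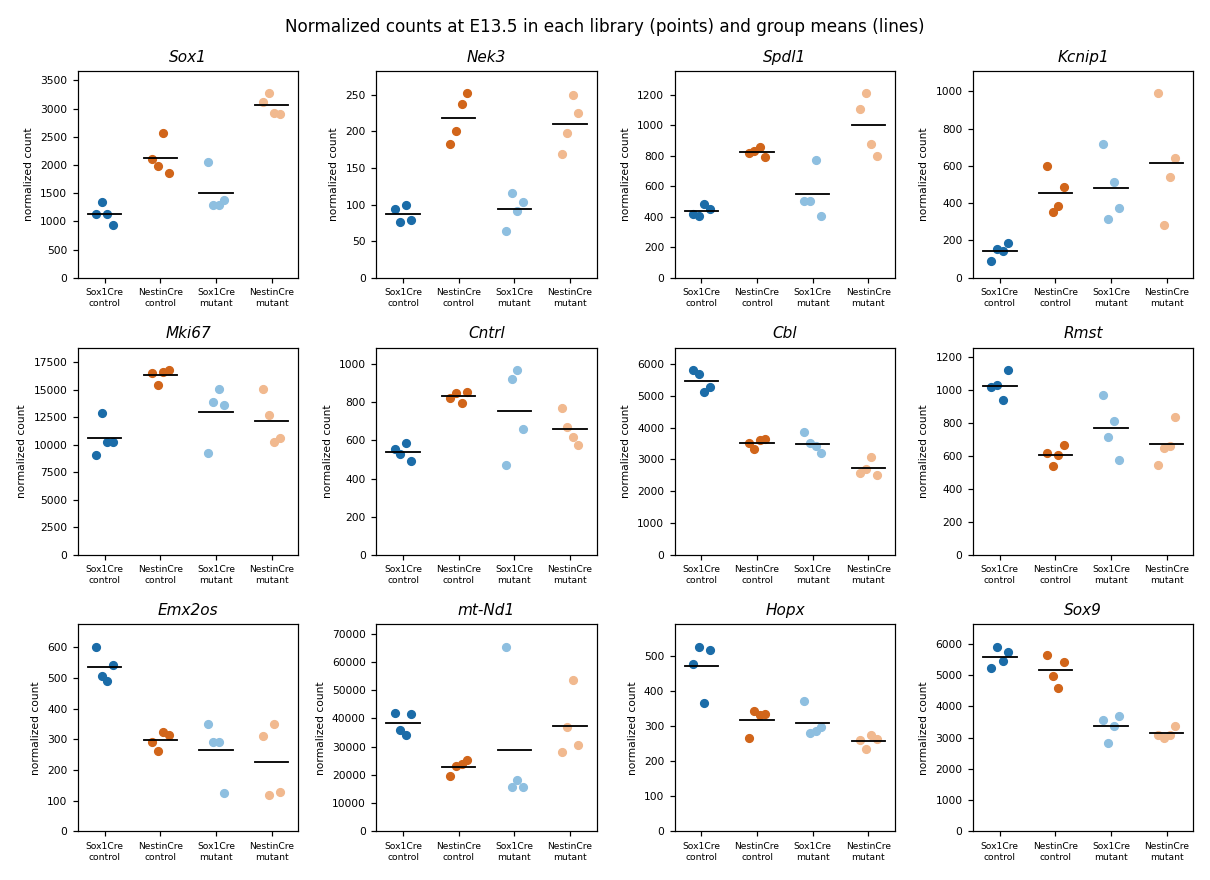
Normalized counts (y axis, from 0) of 12 genes in the 4 groups of E13.5 archicortex (x axis), with a point for each library and a line at the mean of 4. The groups of *Sox1*, *Nek3* and *Spdl1* did not overlap in controls or in mutants, with *Sox1* past the threshold in both, whereas those of *Mki67* and *Cntrl* overlapped in mutants. The 4 *Sox9* values of each control group overlap.

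Several of the largest differences were transcripts close to 0 in every Sox1Cre control and present in every NestinCre control. *Gm9008* (chromosome 6, 76495432 to 76497784), a predicted protein-coding gene, had 3.40, 0.947, 0 and 0 normalized counts in Sox1Cre controls and 303, 345, 288 and 261 in NestinCre controls, a log2 difference of -7.45 (SE 0.45, limma adjusted p = 0.000212). With a group near 0 this size rests on the pseudocount and the fit, and it ranged from -8.14 to -5.67 across the alternatives. *Gm12666* (chromosome 4), also a predicted gene, was at 0 in all 4 Sox1Cre controls and at 46.9, 56.6, 75.6 and 72.5 in NestinCre controls. Taking 3 reads per library as the limit that a count of 0 allows, it was at least 21.2-fold lower in Sox1Cre controls (limma adjusted p = 4.12e-05). The long noncoding RNA *Gm16092* (chromosome 1) was likewise at 0 in the Sox1Cre group and present in all 4 NestinCre controls, with 31.8 normalized counts at most, at least 9.31-fold lower (limma adjusted p = 0.000212). These limits cover counting error only.

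*Tcf24* (chromosome 1, 9960163 to 9967932), a basic helix-loop-helix factor, had 1.13, 2.84, 2.13 and 1.28 normalized counts in Sox1Cre controls and 52.7, 98.2, 39.7 and 56.5 in NestinCre controls, a log2 difference of -4.42 (SE 0.35, limma adjusted p = 0.000911), which ranged from -4.92 to -3.22 across the alternatives. Its mutants repeated the difference at -4.45 (SE 0.50, limma adjusted p = 0.00697). The processed pseudogenes *Gm7868*, *Gm13410*, *Gm29718* and *Gm5131*, named after their values were seen, differed by -5.49, -5.14, -4.07 and -3.80. Across the alternatives these sizes ranged from -6.06 to -3.96, -6.31 to -3.60, -5.73 to -2.36 and -5.86 to -2.0. Processed pseudogenes are near-copies of other transcripts, and how the counting divided reads between copies was not tested.

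For 6 of these transcripts the size of the line difference itself differed between controls and mutants. That difference was tested over the 16 libraries of E13.5 and 13 genes passed (0.084% of the genes tested). In *Gm9008* the Sox1Cre mutants had 292, 278, 243 and 234 normalized counts, inside or just below the range of the NestinCre controls. The NestinCre mutants had 599, 700, 594 and 625, which is 2.10 times the mean of their controls. The line difference in mutants was thus -1.27 (SE 0.10, limma adjusted p = 0.000569). The control difference minus the mutant difference was -6.18 (limma adjusted p = 8.13e-06).

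*Gm13410*, *Gm16092* and *Gm29718*, which lie on chromosomes 2, 1 and 1, were also lowest in Sox1Cre controls and highest in NestinCre mutants. Their means in NestinCre mutants were 2.04, 2.07 and 2.21 times those in NestinCre controls, and Sox1Cre mutants were close to the NestinCre controls. *Gm7868* (chromosome 12) had 195, 191, 199 and 207 normalized counts in Sox1Cre mutants, at the level of the NestinCre mutants. *Gm5131* (chromosome 8), near 0 in Sox1Cre controls, lay between 18.6 and 39.8 in Sox1Cre mutants, overlapping the NestinCre mutants. Sox1Cre controls of E12.5 were near 0 for all of them, the highest value being 6.52 in *Gm9008*. *Gm12666* and *Tcf24* behaved otherwise and stayed near 0 in Sox1Cre controls and Sox1Cre mutants alike at E13.5. In E12.5 mutants of the Sox1Cre line (A9 to A12) *Gm7868* was present in all 4, at 189, 203, 202 and 233 normalized counts, and *Tcf24* was low in all 4, at 5.14 at most. The other 6 were mixed. *Gm12666* had 74.0, 0, 77.2 and 73.9 normalized counts, and *Gm9008* had 342, 4.05, 342 and 709. A10 was also at or near 0 for *Gm13410* (0.810), *Gm16092* (0) and *Gm29718* (0), and A12 was at 0 for *Gm5131*.

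**Figure D2:**
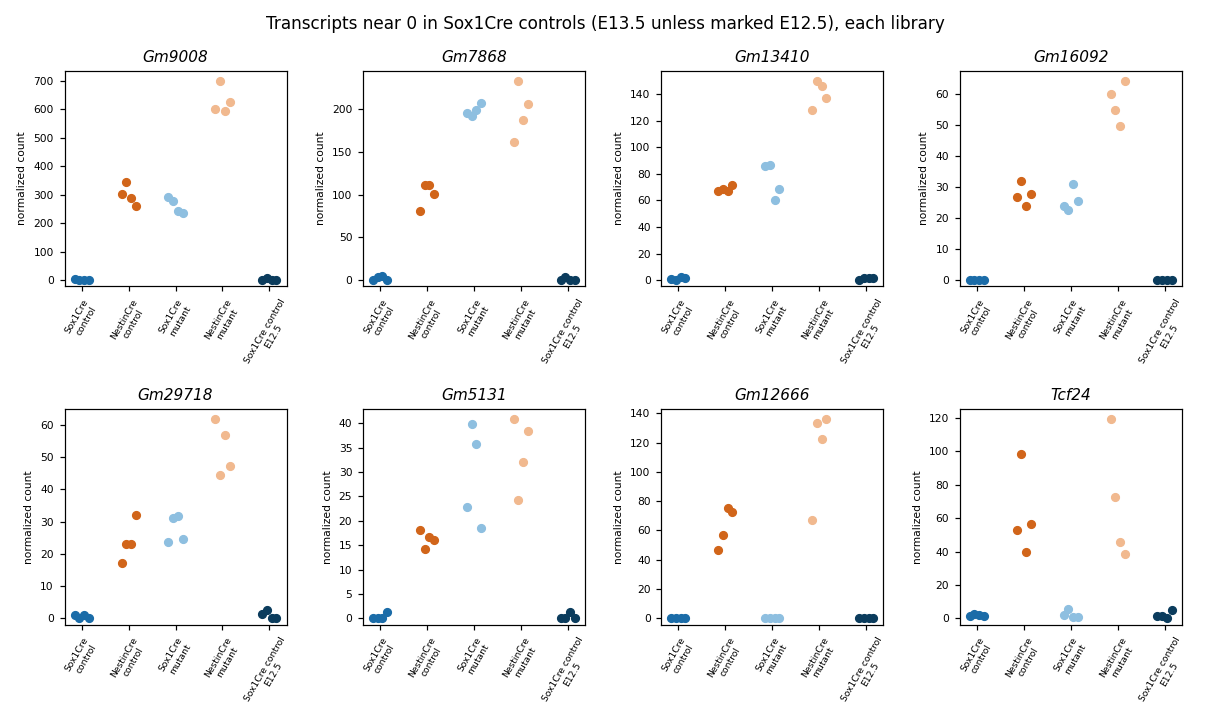
Normalized counts (y axis) of 8 transcripts near 0 in Sox1Cre controls, with a point for each library of the 4 groups at E13.5 and of the Sox1Cre controls at E12.5 (x axis). *Gm12666* and *Tcf24* follow the Cre line in controls and mutants of E13.5, whereas the other 6 are present in Sox1Cre mutants of that age.

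The reverse was also seen. *Gm32687* (chromosome 10, 81863934 to 81881081) had 103, 157, 90.5 and 70.5 normalized counts in Sox1Cre controls and 0 in all 4 NestinCre controls, at least 36.7-fold higher (limma adjusted p = 4.12e-05). *Gm3055*, which lies nearby at 81742821 to 81771161, had 182, 322, 161 and 211 against 21.1, 26.5, 11.1 and 13.9, a log2 difference of 3.55 (SE 0.31, limma adjusted p = 0.00162, and 0.0588 with 16 libraries). Neither followed the Cre line in mutants. *Gm3055* had 220 normalized counts in mutant A1 but 26.9, 32.8 and 11.7 in the other Sox1Cre mutants, and *Gm32687* had 94.9 in A1 and 0 in the others. *Gm20458* and *Gm49337* were at 0 in NestinCre controls and present in 3 and 2 of the 4 Sox1Cre controls, and *Fam177a* had a value, 209, in NestinCre control A24 only. These last 3 were too sparse to test.

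Across the 8 mutants of E13.5 the line contrast called 45 of the same 15475 genes (0.291%). Without A1, in which choroid plexus genes took 0.0359% of reads where the other 3 Sox1Cre mutants had 0.307 to 0.420%, it called 266. The 2 contrasts share no library, and 5 genes passed in both, all lower in the Sox1Cre line: *Sox1*, *Gm9008*, *Gm12666*, *Tcf24* and *Cfap74*. *Cfap74*, a component of motile cilia, had 43.9 ± 11.9 normalized counts in Sox1Cre controls and 116 ± 8.26 in NestinCre controls (SD, n = 4), a log2 difference of -1.42 in controls (limma adjusted p = 0.0372) and -2.15 in mutants (limma adjusted p = 0.0473). The control call of *Cfap74* was lost without A5, A8, A21, A22, A23 or A24 (adjusted p up to 0.168 in limma), with 24 or 16 libraries and with the *Xist* covariate (up to 0.113). Of the 32 genes, 22 had the same sign in mutants, beside 57.7% of all genes tested. In 11 of the 32 the mutant groups did not overlap in the same direction, where 6.91% of the tested genes did not overlap in either direction.

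**Figure D3:**
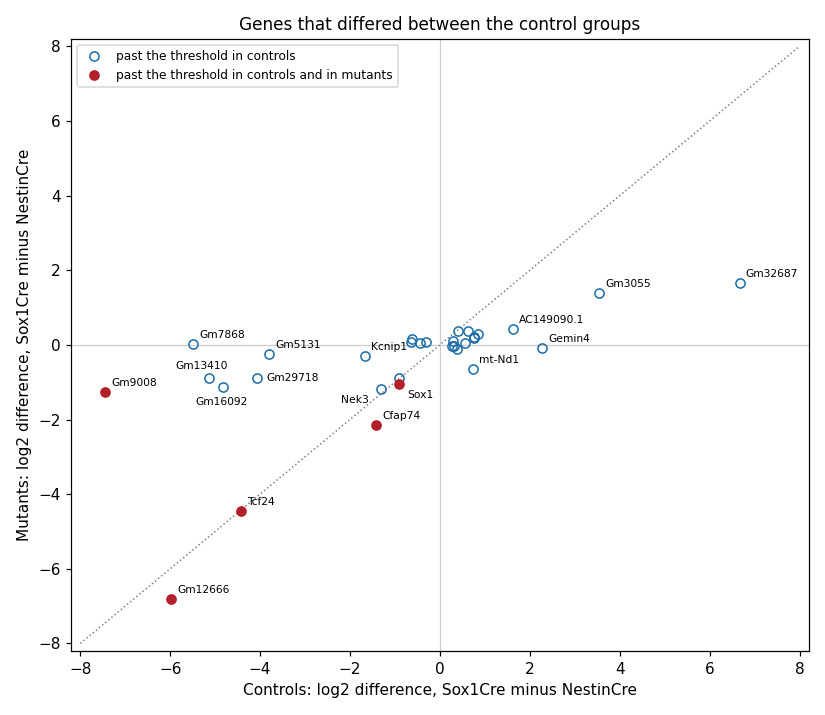
Log2 differences, Sox1Cre minus NestinCre, of the 32 genes that passed in controls, in controls (x axis) and in mutants (y axis), with equal values on the dotted line. Filled points mark the 5 genes that also passed in mutants, all of them lower in the Sox1Cre line.

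A pair of genes in the same region of chromosome 11 was lower in Sox1Cre controls. *Spdl1* (34809190 to 34833641), which recruits dynein to the kinetochore, had 418, 403, 481 and 448 normalized counts in Sox1Cre controls and 820, 830, 855 and 794 in NestinCre controls, with tight and separate groups. Its log2 difference was -0.92 (SE 0.07, limma adjusted p = 0.000786). The mutant groups of *Spdl1* were also apart, with a difference of -0.89 that did not pass the threshold (SE 0.21, limma adjusted p = 0.185). *Kcnip1* (33629339 to 33993152), a calcium-binding subunit of Kv4 channels, had 91.7, 156, 143 and 188 against 599, 350, 385 and 486, a difference of -1.66 (SE 0.24, limma adjusted p = 0.0356). Leaving out A6, A7, A21, A22, A23 or A24 in turn ended the call of *Kcnip1*, with adjusted p-values up to 0.114, as did the 16-library fit and the *Xist* covariate (up to 0.0989), and its mutant groups overlapped (-0.29, SE 0.39).

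Another 4 of the called genes were moderately lower in Sox1Cre controls, *Mki67*, *Cntrl*, *Numa1* and *Tpr*. *Mki67*, which encodes the proliferation antigen Ki-67, had 9039, 12871, 10254 and 10268 normalized counts in Sox1Cre controls and 16518, 15404, 16604 and 16819 in NestinCre controls. All 4 Sox1Cre values were below the NestinCre range, and the log2 difference was -0.63 (SE 0.10, limma adjusted p = 0.0465). *Cntrl* (centriolin, a centrosomal protein) differed by -0.62 (SE 0.07, limma adjusted p = 0.00621). *Numa1*, a spindle pole organiser, and *Tpr*, a nuclear pore basket protein, differed by -0.44 and -0.31 (limma adjusted p = 0.0345 and 0.0463).

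In mutants the line differences of *Mki67*, *Cntrl*, *Numa1* and *Tpr* were 0.08, 0.15, 0.04 and 0.07, and none passed. The tests of control against mutant differences did not pass for these 4 genes either. *Tpr* lost its call without any of the 8 libraries (adjusted p up to 0.200), *Numa1* without A5, A7, A21, A22, A23 or A24 (up to 0.145) and *Mki67* without any except A6 (up to 0.198). *Cntrl* kept its call with each library left out but lost it with all 24 libraries (adjusted p = 0.111 in limma) and with the 16 of E13.5 (0.279). *Mki67* lost its call in 5 of 14 other fits (up to 0.156), *Tpr* in 5 (up to 0.298) and *Numa1* in 2 (up to 0.084).

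The remaining proliferation genes differed little. In bulk RNA, fewer cells of a type and less RNA per cell cannot be told apart. Of 15 proliferation genes tested, *Mki67* alone passed the threshold, and all 15 had negative differences, with a median of -0.09 beside 0.00 over all genes. *Top2a*, the most abundant of them, had 17364 ± 1686 against 18168 ± 684 normalized counts (SD, n = 4), a difference of -0.07 (limma adjusted p = 0.806). *Ccna2* and *Mki67* were the 2 of 15 members whose groups did not overlap, beside 6.37% of all genes. With each library left out in turn, between 12 and 15 members had negative differences. In mutants 1 of the 15 was positive and the median was -0.16.

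*Cbl* was among the 15 genes higher in Sox1Cre controls, and its call was kept under every alternative and with each library left out. *Cbl*, a ubiquitin ligase that downregulates receptor tyrosine kinases, had 5828, 5705, 5135 and 5275 normalized counts in Sox1Cre controls and 3522, 3341, 3608 and 3635 in NestinCre controls. The gap between the groups exceeded the spread within either, and the log2 difference was 0.64 (SE 0.05, limma adjusted p = 0.00152). The mutant groups of *Cbl* did not overlap either, with a difference of 0.36 (SE 0.08, limma adjusted p = 0.169).

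*Rmst*, a long noncoding RNA that binds SOX2, had 1017, 1034, 940 and 1125 normalized counts against 618, 538, 609 and 669, a difference of 0.76 (SE 0.08, limma adjusted p = 0.00621). *Emx2os*, the antisense partner of the patterning gene *Emx2*, had 602, 506, 490 and 542 against 292, 263, 323 and 314, a difference of 0.84 (SE 0.09, limma adjusted p = 0.0081). Both sets of groups were well separated. *Emx2os* lost its call with 24 libraries (adjusted p = 0.313 in limma) and with 16 (0.481), and *Rmst* with 16 (0.0668). *Emx2* itself differed by 0.17 (limma adjusted p = 0.529). The strand setting of the counting is not given in the sources used here, so that reads of *Emx2os* and *Emx2* cannot be told apart where they overlap.

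*Bmpr2*, the type II receptor for BMP ligands, had 6232, 6454, 6197 and 6570 normalized counts in Sox1Cre controls and 5228, 4848, 5245 and 5177 in NestinCre controls, a difference of 0.31 (SE 0.04, limma adjusted p = 0.0312). Its groups were apart, but the call was lost with any library except A5 left out, at adjusted p-values up to 0.106, and in 3 of 14 other fits (up to 0.202). *Snapc1*, a subunit of the complex that activates small nuclear RNA genes, differed by 0.76 (limma adjusted p = 0.0207). *Chd9*, a chromatin remodeller, differed by 0.41 (limma adjusted p = 0.0372). *Snapc1* lost its call without A6, A7, A8, A21, A22 or A23 (up to 0.0778) and with the *Xist* covariate (0.0659). *Chd9* lost it without any library except A5 (up to 0.128) and in 4 of 14 other fits (up to 0.191). *Zfp871*, a zinc finger gene, differed by 0.39 (limma adjusted p = 0.00621) and kept its call with each library left out but not with 16 libraries (0.0573).

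*Mettl23*, a methyltransferase gene on chromosome 11 (116843278 to 116854263), had 536, 514, 527 and 564 normalized counts in Sox1Cre controls and 357, 345, 391 and 367 in NestinCre controls, a difference of 0.55 (SE 0.07, limma adjusted p = 0.0131). Its mutants of both lines were lower still, from 174 to 214 and from 176 to 195, and overlapped. The call was lost without A8, A21 or A22, at adjusted p-values up to 0.0680. *Gemin4*, a member of the SMN complex, differed by 2.28 (limma adjusted p = 0.0356), but of the 8 fits with a library left out it kept the call only without A24 (up to 0.118), and it lost it in 3 of 14 other fits (up to 0.745). *Gemin4* shares exons with *Dbil5*, *Fam57a* and *Glod4*, and *Mettl23* with *Jmjd6*, *Mfsd11* and *Srsf2*. *AC149090.1*, on an unplaced scaffold, differed by 1.63 (limma adjusted p = 0.0120) but not past the threshold with 16 libraries (0.0645). *Pogk* and *Socs4*, named after their values were seen, had the smallest called differences among genes higher in Sox1Cre controls, 0.26 and 0.29 (limma adjusted p = 0.0463 for each). Both lost their calls with any library left out (up to 0.200 and 0.202), and they passed in only 8 and 6 of 14 other fits.

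RNA from the mitochondrial genome was higher in Sox1Cre controls. It made up 1.40, 1.10, 1.06 and 1.27% of the reads on genes in A5 to A8 and 0.718, 0.848, 0.807 and 0.916% in A21 to A24, so that the groups did not overlap (exact permutation test, two-sided p = 0.0286). Of 15 mitochondrial genes tested, 13 had positive differences and the median was 0.56. *mt-Nd1*, a subunit of respiratory complex I, was the member that passed the threshold, with 41988, 35835, 33977 and 41549 against 19500, 23077, 23752 and 25201 normalized counts and a difference of 0.74 (SE 0.10, limma adjusted p = 0.0245). At an unadjusted p under 0.05 there were 10 of the 15 members, beside 9.60% of all genes. *mt-Co1*, the most abundant, differed by 0.62 (limma adjusted p = 0.212).

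In mutants the median of the mitochondrial list was -0.53 and *mt-Nd1* differed by -0.64, with overlapping groups. Mutants A1 and A19 carried 2.39 and 2.21% of mitochondrial reads, above all other E13.5 libraries. *mt-Nd1* lost its call in controls without A5, A6, A8, A22 or A23, at adjusted p-values up to 0.0895, and with 24 or 16 libraries (up to 0.565). The part of the mitochondrial share in other differences was not tested. The ribosomal protein genes, S6 kinases left out, had 66 of 82 members with positive differences and a median of 0.09, and none passed. This count ranged from 37 to 73 of 82 with a library left out, and in mutants it was 7 of 82, with a median of -0.10.

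**Figure D4:**
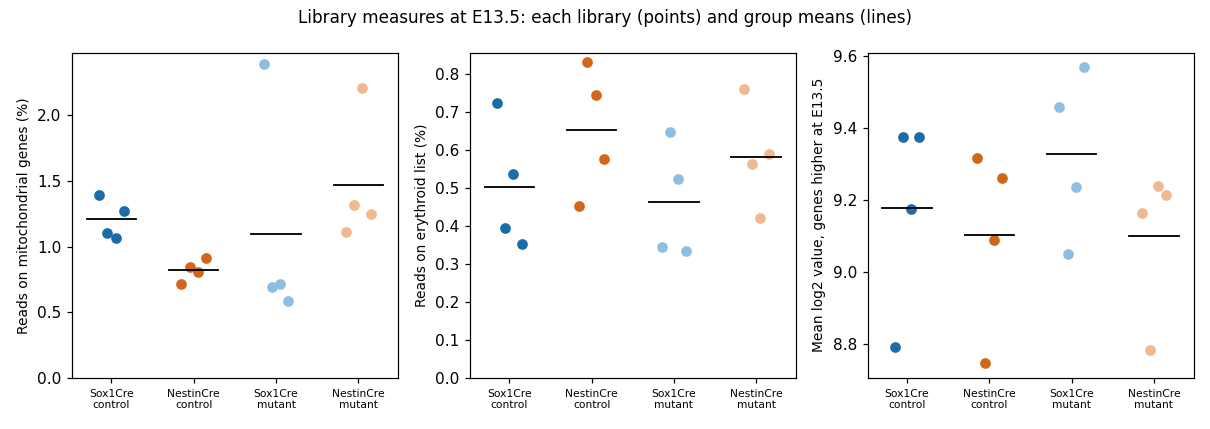
Share of reads on genes of the mitochondrial genome and of the erythroid list (percent, y axes from 0) and the mean log2 value of genes higher at E13.5 than at E12.5 (y axis not from 0), with a point for each library and a line at the group mean. In controls the groups are apart for mitochondrial reads and overlap for the others.

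None of the genes of the cortical hem passed the threshold. All 13 tested had positive differences in Sox1Cre controls, with a median of 0.16. *Wnt5a* had 3492 ± 616 normalized counts in Sox1Cre controls and 2564 ± 128 in NestinCre controls (SD, n = 4), a difference of 0.43 (limma adjusted p = 0.273), and was the 1 of 13 hem genes whose groups did not overlap, a share near the 6.37% of all genes. *Wnt8b*, the most abundant, differed by 0.17 (limma adjusted p = 0.845) and *Rspo3*, an enhancer of WNT signalling, by 0.13 (limma adjusted p = 0.886). Without A7 or A21 only 9 of the 13 hem genes had positive differences. The median was 0.03 without A21 and 0.30 without A6. In mutants 8 of 13 had positive differences.

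*Hopx*, expressed in radial glia of the dentate region and hem, had 477, 527, 367 and 518 normalized counts in Sox1Cre controls and 265, 344, 331 and 336 in NestinCre controls. The groups did not overlap, but the log2 difference of 0.56 (SE 0.13) did not pass after adjustment (limma adjusted p = 0.239), whereas it passed in DESeq2. The mutant groups of *Hopx* did not overlap either, with a difference of 0.25 (limma adjusted p = 0.509). Of 14 radial glia and astrocytic progenitor genes, 12 had positive differences, with a median of 0.16, and none passed. With a library left out this median ranged from 0.064 (without A22) to 0.28 (without A5), and between 10 and 13 genes were positive. *Vim*, the most abundant in this list by mean, differed by 0.01 (limma adjusted p = 0.991) and *Nfib* by 0.18 (limma adjusted p = 0.785).

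Cajal-Retzius genes were described in the same way. Of 10 tested, 8 had positive differences, with a median of 0.20, and none passed. *Reln*, the secreted glycoprotein of these neurons, had 8325 ± 2384 against 6614 ± 1668 normalized counts (SD, n = 4), a difference of 0.32 (limma adjusted p = 0.727). *Trp73* differed by 0.17 (limma adjusted p = 0.693). Of 14 genes of postmitotic neurons, 11 had positive differences, with a median of 0.07, but 3 to 12 did so when a library was left out. Neurogenic progenitor genes were divided, 7 positive and 5 negative, and the proneural gene *Neurog2* differed by 0.21 (limma adjusted p = 0.526).

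Patterning and signalling genes were close to even. Among 13 dorsal telencephalic genes 6 had positive and 7 negative differences, with a median of -0.03. *Lhx2*, the most abundant of them, differed by -0.11 (limma adjusted p = 0.807). *Fezf2*, at -0.23 (limma adjusted p = 0.416), was the 1 of 13 members whose groups did not overlap, again near the 6.37% of all genes. The Notch pathway had 5 of 10 genes in each direction, and *Notch1* and *Notch2* differed by 0.16 and 0.13. Of 10 genes of the WNT response 6 were positive, and *Axin2*, a direct target, differed by -0.08 (limma adjusted p = 0.880). No member of these lists passed the threshold.

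**Figure D5:**
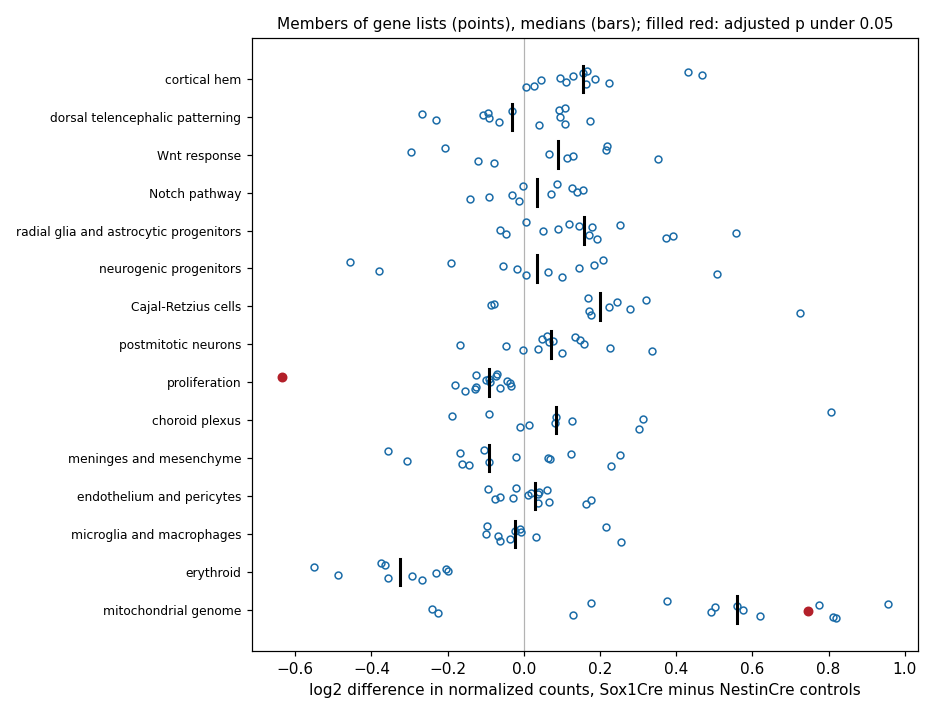
Log2 differences, Sox1Cre minus NestinCre controls (x axis), of the tested members of 15 gene lists (y axis), with a point for each gene and a bar at each median. *Mki67* and *mt-Nd1* are the filled points, which passed the threshold. The medians range from -0.33 for erythroid genes to 0.56 for the mitochondrial genome.

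Genes of tissues that a dissection can include were counted in both groups. Choroid plexus genes summed to 49107 ± 19920 normalized counts in Sox1Cre controls and 48294 ± 9103 in NestinCre controls (SD, n = 4), with none of 10 past the threshold. *Ttr*, the most abundant, had 22053, 21914, 50780 and 41146 in Sox1Cre controls and 44492, 27150, 30352 and 35602 in NestinCre controls, overlapping widely. Erythroid genes summed to 118014 ± 39890 and 151156 ± 40010. All 10 erythroid genes had negative differences, with a median of -0.33, but none passed. The median ranged from -0.61 (without A5) to -0.14 (without A22) with a library left out, and without A6 or A22 the number of positive genes was 2. Their share of reads was 0.503 ± 0.166% and 0.652 ± 0.170% (exact permutation test, two-sided p = 0.229).

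Meningeal and mesenchymal genes summed to 40196 ± 5116 and 43502 ± 6112 normalized counts, with *Col3a1* the most abundant. Endothelial and pericyte genes summed to 14546 ± 589 and 14282 ± 570, led by *Kdr*, and microglial genes to 2645 ± 487 and 2671 ± 180, led by *Mrc1*. No member of these 3 lists had an unadjusted p under 0.05. Of 10 diencephalic genes 5 were tested and 4 had positive differences. *Gata3* and *Irx3* differed by 1.03 and 0.75 and neither passed (limma adjusted p = 0.401 and 0.347). *Lhx9*, the most abundant of the list, differed by 0.22 (limma adjusted p = 0.653). *Pou4f1* differed by 0.12 and *Barhl2* by -0.05 (limma adjusted p = 0.932 and 0.991). The members too low to test were *Gbx2*, *Olig3*, *Irx1*, *Irx2* and *Nkx2-2*. Their means were 1.99, 10.4, 2.31, 2.59 and 0.266 in Sox1Cre controls and 2.07, 1.22, 2.40, 1.89 and 0 in NestinCre controls. The presence of diencephalic tissue was not tested. Immediate early genes (10 tested), glycolytic genes (11) and histone genes (55) had medians of -0.09, 0.01 and -0.21, and none passed. With a library left out the histone median ranged from -0.30 (without A24) to -0.066 (without A8). The immediate early median ranged from -0.11 to -0.034, and the glycolytic median from -0.031 to 0.076.

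Genes that changed between E12.5 and E13.5 in Sox1Cre mutants also varied among the controls of a group. Of 1263 genes higher at E13.5 (limma adjusted p under 0.05), 856 (67.8%) were higher in Sox1Cre than in NestinCre controls, beside 51.1% of all genes, with a median difference of 0.07. Of 878 genes lower at E13.5, 405 (46.1%) were higher in Sox1Cre controls, with a median of -0.01. The mean log2 value of the first list was 8.79, 9.37, 9.17 and 9.37 in A5 to A8 and 9.32, 8.75, 9.09 and 9.26 in A21 to A24. A5 and A22 were the lowest of their groups, as they were in the summed counts of postmitotic neuron genes (35326 and 32592), whose part in this score was not tested, and the group means of 9.18 ± 0.274 and 9.10 ± 0.256 (SD, n = 4) overlapped (exact permutation test, two-sided p = 0.629).

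Principal components of the 500 most variable genes separated the lines along the first axis, which held 28.8% of the variance. All Sox1Cre scores lay above all NestinCre scores, with A5 nearest at 0.435 (exact permutation test, two-sided p = 0.0286). The second axis (16.2%) did not (exact p = 0.571) and set A5 apart from the other libraries. The separation on the first axis was lost when 2000 genes were used (exact p = 0.0857).

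The sex of the embryos was uneven. *Xist*, expressed from the inactive X chromosome, had 3526 normalized counts in NestinCre control A23 and at most 3.20 in the other 7 controls of E13.5. The Sox1Cre controls of E12.5, unlike those of E13.5, had 4040, 3660, 4451 and 3729, so that age and sex cannot be told apart between them. Mutants A2, A3, A18 and A20 had 4616, 5934, 4046 and 3827, and the other mutants of E13.5 had 6.41 at most. No gene of the X chromosome passed the threshold. With log2 *Xist* as a covariate 29 genes passed in controls, and 33 passed when genes of the X and Y chromosomes were left out.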

How the data were processed

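RNA of dissected archicortex was prepared as mRNA libraries and sequenced by the authors. The authors trimmed reads with Trimmomatic 0.36, aligned them to GRCm38 with STAR 2.5.2a and estimated counts per gene with RSEM 1.2.31, which they divided by DESeq2 size factors. The deposited values, used here as a signal per gene, are these normalized counts without pooling. In all libraries 100% of values were whole multiples of their smallest step (tolerance 0.01), so reads were recovered for depth and count models. No column of another sample was used or left over (0 unused). GENCODE M21 named 51719 of 51912 genes.

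The log2(value + 1) of the 8 control libraries was modelled with limma 3.58.1 under R 4.3.3 (lmFit, eBayes with trend), as were the 8 mutants and, for the difference of both, all 16 libraries. Alternatives were pseudocounts of 0.5 and 5, no filter, a mean of at least 100, 16 or 24 libraries, quantile normalization, robust fitting, array weights, log2 *Xist* as covariate, omission of X and Y genes or of genes within 10 Mb of *Sox1* and *Nes*, edgeR 4.0.16, DESeq2 1.42.0 and each library left out. The fits were tested on simulated data first. Summaries and plots were made in Python 3.11.15 (matplotlib 3.10.9, scipy 1.17.1, pandas 2.3.3, numpy 2.4.6).

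Replicate pairs of controls differed by more than counting error (chi-square over degrees of freedom 10.67 to 36.91). Libraries of a group were treated as replicates.

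Named genes are the up to 12 largest differences in each direction among non-overlapping genes that passed and averaged 100 or more, called members and the 2 most abundant members of each list, *Sox1*, *Sox2*, *Sox3*, *Sox9*, *Nes*, *Hopx* and *Xist*, up to 6 genes at 0 in a control group with a mean of at least 10 in the other, and genes passing in controls and mutants. Other members of lists were named after their values were seen. The result for 1 gene that the rule names is not reported here. The groups, gene lists and rules were chosen with earlier results of these data known.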

Additional observations from a re-analysis of the deposited data

Results flagged for a closer look

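The line difference differed between controls and mutants, by a limma contrast over 16 libraries with Benjamini-Hochberg adjustment, in 6 genes that also passed in controls. The control difference minus the mutant difference was -6.18 for *Gm9008*, -5.51 for *Gm7868*, -4.24 for *Gm13410*, -3.71 for *Gm16092*, -3.56 for *Gm5131* and -3.17 for *Gm29718* on the log2 scale.

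Single libraries stood far from the other 3 of their group in 8 of 174 sets of values examined, where chance alone gives about 1 in 20. Among NestinCre controls these were *Lhx9* in A22 (1421 normalized counts, the lowest), *Irx3* in A21 (39.3, the lowest), *Syt11* in A22 (9137, the lowest), *Hopx* in A21 (265, the lowest), *Eif2s3x* in A23 (12958, the highest), *Xist* in A23 (3526, the highest) and *Fam177a* in A24 (209, the highest). Among Sox1Cre controls it was *Pgk1* in A6 (11499, the lowest). *Eif2s3x* and *Xist* are X-linked and were high in the same embryo.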

How the results depend on the processing

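The 32 genes called in controls became 19 with a mean of at least 100, 17 with the 16 libraries of E13.5 and 206 with DESeq2, and 20 (without A22) to 30 with a library left out. The 45 called in mutants became 28 with a mean of at least 100, 168 with all 24 libraries, 75 with 16 libraries, 1101 with array weights and 301 with DESeq2, and 30 to 266 (without A1) with a library left out. The 13 genes whose line difference differed became 7 with all 24 libraries. The exact p of the first component was 0.0857 with 2000 genes and 0.114 with all genes, and that of the second was 0.0286 with all genes. The cause of these changes was not tested. The median of the Notch pathway ranged from -0.040 (without A5) to 0.11 (without A22) with a library left out, an alternative added after seeing the data, and no other list median moved by more than its spread between libraries. All 25 list medians kept within that spread under quantile normalization.

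No named gene changed sign past the threshold. Of the 32 genes, 13 were called under all alternatives that fitted them, 18 with each library left out and 12 under both. No paired analysis was possible because the groups compared share no replicate numbers. With 4 libraries a group, exact tests stop at p = 0.0286, and the difference in sex between the control groups of E13.5 rests on A23 alone.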

Other observations

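Genes around *Sox9* were counted after their values were seen. Within 10 Mb of *Sox9*, 252 genes were tested in controls, of which *Mettl23* passed the threshold, 34 had an unadjusted p under 0.05 where 9.60% of all genes did, and 28 (11.1%) had groups that did not overlap beside 6.37%. The median log2 difference of these genes was -0.01. *Kpna2*, an importin, had means of 3657 normalized counts in Sox1Cre controls, 1501 in NestinCre controls, 1599 in Sox1Cre mutants and 719 in NestinCre mutants, with overlapping control groups. *C130046K22Rik*, a noncoding transcript, had means of 2.13, 4.34 and 0 in the last 3 of these groups and was higher in each Sox1Cre control than in any NestinCre control.

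*Gm42418*, the most abundant of the genes tested, took 0.933 ± 0.395% of reads in Sox1Cre controls and 1.33 ± 0.472% in NestinCre controls (SD, n = 4), with overlapping groups (exact permutation test, two-sided p = 0.229).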
